A study of Drosophila melanogaster with 4 samples.

Results

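Cytoplasmic ribosomal protein genes were taken from the RefSeq gene table of Release 6 of the fly genome as those whose symbol begins with RpL or RpS followed by a digit or P, which leaves out the mitochondrial mRpL and mRpS genes. This gave 92 of the 17684 genes on X, 2L, 2R, 3L, 3R and 4, of which 14 were X-linked and 78 autosomal. The rule used symbols and no measured value, but earlier results of these data were known when it was chosen. Sites of Maleless (MLE) had been mapped by CUT&RUN, in which antibody-tethered micrococcal nuclease releases the DNA around a chromatin protein, with a rat antibody to MLE on whole male embryos.

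The groups were embryos of 2-4 h from MTD-GAL4>CLAMPRNAi mothers, embryos of 2-4 h from MTD-GAL4>GFPRNAi mothers (control), and embryos of 0-2 h of the same maternal genotypes in the same order. MTD-GAL4 drives in the female germ line, so the RNAi acts on what the mother supplies to the egg. The CLAMP construct was UAS-CLAMPRNAi[val22]. Every group shared the driver and, per the labels, came from crosses with meiotic drive stocks that give male embryos. One stock carried SD72/CyO, and the other, named 19-3, carried yw, had Rsp[s]-B[s] over Dp(2:y)CB25-4 with y+, and had Rsp[s]B[s] with SPSD over CyO. Embryos were pooled from several timed layings. The titles call the 2-4 h samples pre-MZT, while the design text places that age after the maternal to zygotic transition (MZT). The design text speaks of 2 replicates, but 1 peak list per group was analysed, so no difference between lists has a replicate check, and no p-value is given. Intervals are 95% intervals of counting error over genes or peaks.

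MLE is an RNA helicase of the dosage compensation complex, which assembles on the male X and raises the output of its genes. CLAMP is a zinc finger protein that binds GA-rich repeats and helps to bring that complex to the X. Ribosomal protein genes encode the proteins of the large and the small ribosomal subunit. They are short, present on every major arm, and among the most strongly transcribed genes of growing cells, and mothers load their mRNAs into the egg. Loss of 1 copy of many of them gives the slow-growing, short-bristled Minute phenotype. Expression was not measured in these samples.

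The CLAMP RNAi 2-4 h list held 15890 peaks and the control 2-4 h list 25026. At 0-2 h the CLAMP RNAi list held 22489 peaks and the control list 28246. List length therefore moved with genotype at both ages. Read numbers per list were not analysed here, so the depth behind each list is unknown.

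A gene was counted as having a peak when the midpoint of a peak lay in its span or within 500 bp of it. Ribosomal protein genes had a median span of 1315 bp (304 to 4677 bp), and they were set beside all 14082 genes of up to 5 kb, whose median span was 1294 bp. In CLAMP RNAi 2-4 h, 25 of 92 ribosomal protein genes had a peak, or 27.2% (18.4% to 37.4%), against 19.7% of genes up to 5 kb and 30.9% of all genes. In control 2-4 h the number was 41, or 44.6% (34.2% to 55.3%), against 32.5% of genes up to 5 kb and 43.2% of all genes. In CLAMP RNAi 0-2 h it was 34, or 37.0% (27.1% to 47.7%), against 27.2% and 38.3%. In control 0-2 h it was 46, or 50.0% (39.4% to 60.6%), against 35.9% and 46.5%. The share of ribosomal protein genes was thus above that of genes of like length in each list, and its interval reached down to theirs in both CLAMP RNAi lists (lower bound 18.4% against 19.7% at 2-4 h and 27.1% against 27.2% at 0-2 h) but not in the control lists. With stronger peaks alone the interval included the background in the control lists too. With lists cut to equal length, 22.8% (14.7% to 32.8%) of ribosomal protein genes had a peak in control 2-4 h, against 20.0% of genes up to 5 kb, and 27.2% (18.4% to 37.4%) in control 0-2 h, against 19.7%. At a score of at least 50, CLAMP RNAi 2-4 h had the lower share in ribosomal protein genes, with 1.09% (0.0275% to 5.91%) against 4.47%. The share over all genes, which include long genes with more room for peaks, lay inside the interval in each list.

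Counted per length of DNA, the windows of the 92 genes covered 222.5 kb. They held 121.3 peaks per Mb (79.96 to 176.5) in CLAMP RNAi 2-4 h, against 86.4 per Mb over the windows of all genes up to 5 kb. In control 2-4 h the density was 215.7 peaks per Mb (159.04 to 285.99), against 150.6. In CLAMP RNAi 0-2 h it was 170.8 (120.8 to 234.4), against 128.3, and in control 0-2 h 242.7 (182.3 to 316.6), against 175.2. As with the shares, the interval lay above the value of genes up to 5 kb in the control lists and included it in the CLAMP RNAi lists. Over the windows of all genes of any length the densities were 123.8, 196.4, 175.9 and 220.5 peaks per Mb in the same order of lists, within the interval of the ribosomal protein genes each time.

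**Figure D1:**
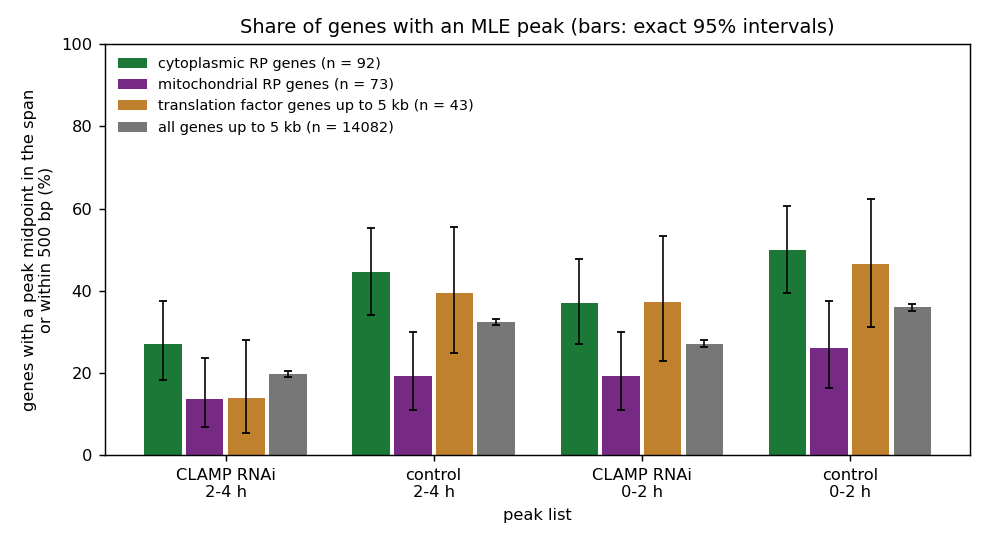
Share of genes (%) with a peak midpoint in the span or within 500 bp, for each of the 4 peak lists. Bars stand for cytoplasmic ribosomal protein genes (RP, n = 92), mitochondrial ribosomal protein genes (n = 73), translation factor genes up to 5 kb (n = 43) and all genes up to 5 kb (n = 14082), with exact 95% intervals; cytoplasmic ribosomal protein genes lie between 27.2% and 50.0%, above the mitochondrial ones at 13.7% to 26.0% in each list.

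The plot of shares by gene list also shows genes of related function. Mitochondrial ribosomal protein genes, which encode the proteins of the organelle's own ribosome, had a peak in 10 of 73 genes with CLAMP RNAi at 2-4 h and 14 in the 2-4 h control. At 0-2 h the numbers were 14 in CLAMP RNAi and 19 in control, or 26.0% (16.5% to 37.6%). These genes were shorter, with a median span of 909 bp, and their density, from 61.8 peaks per Mb with CLAMP RNAi at 2-4 h to 123.6 in the 0-2 h control, was below that of the cytoplasmic set in each list. The intervals of density overlapped in each list, by the least in control 2-4 h, where cytoplasmic genes held 215.7 peaks per Mb (159.04 to 285.99) and mitochondrial ones 98.8 (56.5 to 160.5). Genes for translation initiation and elongation factors of up to 5 kb had a peak in 6 of 43 with CLAMP RNAi at 2-4 h, 17 in the 2-4 h control, 16 with CLAMP RNAi at 0-2 h and 20 in the 0-2 h control.

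Within the cytoplasmic set, genes of both subunits, assigned by symbol alone, carried peaks. Members with -like in the symbol were counted with the part their symbol names, and whether their proteins belong to the ribosome was not examined. Of 50 large subunit genes outside the stalk, 14 had a peak with CLAMP RNAi at 2-4 h, 26 in the 2-4 h control, 20 with CLAMP RNAi at 0-2 h and 28 in the 0-2 h control. Of 38 small subunit genes the numbers were 10, 12, 12 and 15 in that order. The shares were 28.0%, 52.0%, 40.0% and 56.0% for the large and 26.3%, 31.6%, 31.6% and 39.5% for the small subunit. Genes up to 5 kb had 19.7%, 32.5%, 27.2% and 35.9%. The interval of the large subunit lay above these values in both control lists and included them in the CLAMP RNAi lists. That of the small subunit included them in each list. The control 2-4 h shares were 52.0% (37.4% to 66.3%) for the large and 31.6% (17.5% to 48.7%) for the small subunit, with overlapping intervals. The stalk is the arm of the large subunit that recruits translation factors, and 4 genes carried its symbols, namely RpLP0, RpLP1, RpLP2 and RpLP0-like. RpLP1 had a peak in each list and RpLP2 in each list except CLAMP RNAi 2-4 h. RpLP0, which anchors the stalk, had a peak in the controls of both ages and with CLAMP RNAi at neither, and RpLP0-like had none.

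The comparison of X with autosomes was the one the study's question turns on, since MLE acts in X dosage compensation. In CLAMP RNAi 2-4 h, 6 of 14 X genes and 19 of 78 autosomal genes of the set had a peak, a difference of 18.5 percentage points (-5.44 to 44.4). In control 2-4 h these were 9 of 14 on the X and 32 of 78 on autosomes, a difference of 23.3 points (-4.57 to 45.2). In CLAMP RNAi 0-2 h they were 4 of 14 and 30 of 78, a difference of -9.89 points (-30.1 to 18.0), and in control 0-2 h 6 of 14 and 40 of 78, a difference of -8.42 points (-32.5 to 18.4). Each interval included 0, so with these windows and all 92 genes an X difference was not detectable in any of the lists. In control 2-4 h the interval was above 0 under a pair of other settings. With gene spans alone, without the 500 bp on either side, the difference there was 27.7 points (0.797 to 50.9). Without members whose symbols mark paralogs, which leaves 69 genes, of them 6 on the X, it was 43.7 points (2.09 to 61.3). The point value was positive in both 2-4 h lists and negative in both 0-2 h lists.

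Genes of up to 5 kb as a whole had a peak more often on the X in each list. In CLAMP RNAi 2-4 h the shares were 25.5% on the X and 18.7% on autosomes, and in control 2-4 h 39.0% on the X and 31.4% on autosomes. In CLAMP RNAi 0-2 h they were 34.7% on the X and 25.9% on autosomes, and in control 0-2 h 44.2% and 34.5%. Their X minus autosome difference lay between 6.73 points (CLAMP RNAi 2-4 h, 4.75 to 8.79) and 9.69 points (control 0-2 h, 7.38 to 12.0). All 4 of these values fall inside the wide intervals of the ribosomal protein genes. The sign at 0-2 h depended on the settings: with spans alone the difference was 2.93 points in CLAMP RNAi 0-2 h and 3.66 points in control 0-2 h. In control 0-2 h it was also positive without paralogs (12.7 points), with lists cut to equal length (10.1 points) and at a score of at least 50 (5.49 points).

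**Figure D2:**
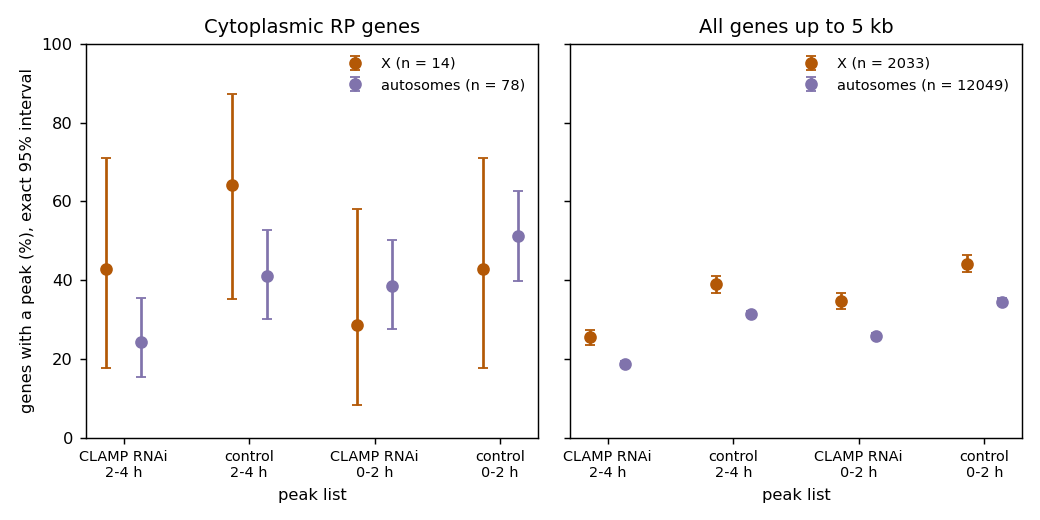
Share of genes with a peak (%) on the X and on autosomes in each peak list, for cytoplasmic ribosomal protein genes (RP; 14 and 78) on the left and all genes up to 5 kb (2033 and 12049) on the right. Points are shares and bars exact 95% intervals, which overlap between X and autosomes for ribosomal protein genes in each list.

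Of the 14 X genes, 10 had a peak in at least 1 list. RpL7A, RpS15Aa and RpS10b had a peak in each of the 4. Peak strength was expressed as a rank, the percentage of a list's peaks with a score at or below that of the peak, because the authors' scores have no common scale between lists. RpS10b (X 19598031 to 19599806), a small subunit gene, had the strongest X peak of the set in 2 lists. It lay inside the span and had a rank of 61.9% in CLAMP RNAi 2-4 h (score 32) and 68.2% in control 2-4 h (score 124). At 0-2 h it had a rank of 79.6% in CLAMP RNAi (score 173) and 40.5% in control (score 37). The 4 midpoints of RpS10b lay within 85.5 bp of each other.

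RpL7A (X 6530897 to 6533348), a large subunit gene with a snoRNA gene in its span, had 1 peak in CLAMP RNAi 2-4 h and 2 in each other list. A region of RpL7A at 6532405 to 6532882 was common to the 4 lists, with midpoints up to 222.0 bp apart. A further RpL7A site at 6530985 to 6531413 was found in control 2-4 h, CLAMP RNAi 0-2 h and control 0-2 h and not in CLAMP RNAi 2-4 h. RpS15Aa (X 13335637 to 13337705), of the small subunit, had a peak in each list but at differing places. At RpS15Aa a site inside the span was shared by control 2-4 h and CLAMP RNAi 0-2 h, and one beyond its upper end by CLAMP RNAi 2-4 h, control 2-4 h and control 0-2 h.

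RpL35 (X 5672401 to 5673547), whose protein lies near the exit of the peptide tunnel, held the strongest CLAMP RNAi 2-4 h peak of the whole set. That RpL35 peak, at X 5671934 to 5672297 below the span, had a score of 50 and a rank of 79.1%. At that site RpL35 had a rank of 47.2% in the 2-4 h control and 35.1% in the 0-2 h control, while CLAMP RNAi 0-2 h had no peak. A second RpL35 site, at the upper end of the span, was present in both controls alone, with ranks of 37.8% at 2-4 h and 66.2% at 0-2 h. RpL22 (X 762560 to 765130), of the large subunit, had a peak in each list except CLAMP RNAi 2-4 h, at one site near its upper end. The ranks of RpL22 there were 58.1% in control at 2-4 h, 15.3% with CLAMP RNAi at 0-2 h and 60.7% in control at 0-2 h. CLAMP RNAi 0-2 h had a further RpL22 peak, of rank 37.1%, in the overlapping lncRNA:CR42491. RpL36 (X 628338 to 629483), also of the large subunit, had 1 in control 2-4 h (rank 7.26%) and 1 in control 0-2 h (rank 60.7%).

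The tandem genes RpS14a and RpS14b (X 7933742 to 7934677 and 7934898 to 7935792) encode the same small subunit protein. RpS14a had a peak at 2-4 h only, with a rank of 41.4% in CLAMP RNAi and 58.1% in control, and RpS14b had none. Near-identical copies can share reads, and how such reads were assigned before peaks were called was not stated. The remaining X genes with a peak had 1 each. RpS28b had it in CLAMP RNAi 2-4 h, with a rank of 41.4%. RpL17 and RpL37-1 had it in control 2-4 h, with ranks of 1.52% and 26.9%. RpS6, the small subunit target of S6 kinase, had no peak in any list, and the same was true of RpS5a and RpS19a.

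By arm, the share of ribosomal protein genes was highest on 2L in each list except control 2-4 h, where the X (64.3%) and 3L (57.1%) were higher (leaving aside chromosome 4, with 1 gene). In CLAMP RNAi 2-4 h, 10 of the 19 genes on 2L had a peak, or 52.6% (28.9% to 75.6%), against 18.7% of genes up to 5 kb on that arm. In control 2-4 h the number was also 10, against 32.6%. In CLAMP RNAi 0-2 h it was 12, or 63.2% (38.4% to 83.7%), against 24.3%, and in control 0-2 h 15, or 78.9% (54.4% to 93.9%), against 32.6%. On 3R, which held 23 genes of the set, 3 had a peak with CLAMP RNAi at 2-4 h, 7 in the 2-4 h control, 5 with CLAMP RNAi at 0-2 h and 8 in the 0-2 h control. The share on 3R was below that of genes up to 5 kb on the arm in each list, with an interval that included it. The 21 genes on 2R gave 3, 6, 5 and 8 in the same order. Those were 14.3%, 28.6%, 23.8% and 38.1%, against 17.1%, 29.1%, 24.0% and 33.6% of genes up to 5 kb on 2R. The 14 genes on 3L gave 3, 8, 8 and 9, or 21.4%, 57.1%, 57.1% and 64.3%, against 19.5%, 31.3%, 27.7% and 35.3%. On 3L the interval lay above the share of genes up to 5 kb in CLAMP RNAi 0-2 h alone (28.9% to 82.3%). The difference between arms was read from these lists after the fact and was not tested.

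**Figure D3:**
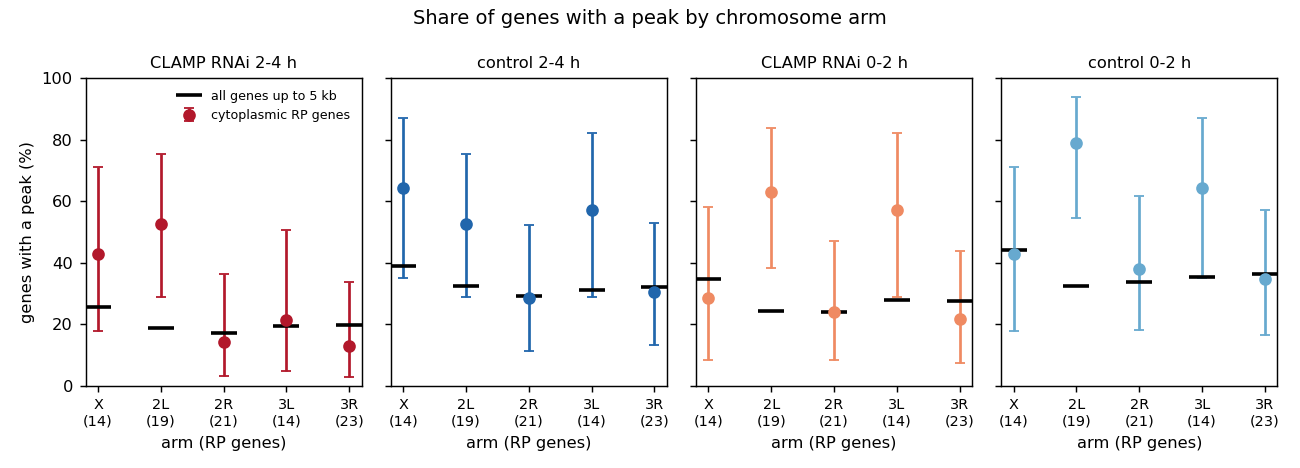
Share of genes with a peak (%) by chromosome arm, 1 panel per peak list. Points with exact 95% intervals are cytoplasmic ribosomal protein genes (RP; number per arm in brackets) and black marks all genes up to 5 kb of that arm; on 2L the ribosomal protein genes lie between 52.6% and 78.9%, with the black mark below the interval in 3 of the 4 lists and inside it in control 2-4 h, and the 1 gene on chromosome 4 is not drawn.

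Of the 92 genes, 15 had a peak in each of the 4 lists, against 10.3% of genes up to 5 kb, and 29 had none in any list, against 47.8%. The 15 genes make up 16.3% of the set. They are 8 of 19 genes on 2L, 3 of 14 on the X and 2 of 14 on 3L. On 2R it was 1 of 21 and on 3R 1 of 23. Of genes up to 5 kb, 8.87% on 2L, 15.6% on the X and 10.0% on 3L had a peak in each list. On 2R it was 8.85% of them and on 3R 10.1%. A further 23 genes had a peak in 1 list, 12 in 2 lists and 13 in 3 lists. Of the 14082 genes up to 5 kb, 2888 had a peak in 1 list, 1481 in 2 lists and 1520 in 3 lists. The 29 genes without a peak included 11 of 21 on 2R and 10 of 23 on 3R, but 2 of 19 on 2L. The share of genes up to 5 kb without a peak was not computed by arm.

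Merging the overlapping peaks at these genes over the lists gave 78 regions. In 14 (17.9%) there was a peak of each list, in 7 a peak of each list except CLAMP RNAi 2-4 h, and in 33 a peak of 1 list. Regions were not merged for other genes. Counted by gene, 7 of the 92 had a peak in each list except CLAMP RNAi 2-4 h, which was the shortest list. Among genes up to 5 kb these were 1150 of 14082, a share close to that of the set. The 14 common regions had midpoints that differed between lists by a median of 97.5 bp (1.5 to 222.0 bp). Of them, 9 lay on 2L. At RpS3 and RpS15Aa, which had a peak in each list, the peaks fell in different regions, while RpS27A had 2 common regions.

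RpL29 (2R 21293768 to 21294404), a large subunit gene, had the strongest peak of the set in each list except CLAMP RNAi 2-4 h. The RpL29 peak lay in the middle of the span at 2R 21293883 to 21294262, with the same start in each list and midpoints within 1.5 bp. In CLAMP RNAi 2-4 h it had a score of 17 and a rank of 15.8%, against a score of 663 and a rank of 90.8% in control 2-4 h. At 0-2 h its score was 310 and its rank 87.1% in CLAMP RNAi, against 523 and 93.7% in control. The low value of RpL29 was thus that of the CLAMP RNAi 2-4 h list, while the other lists placed the site in their upper part.

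RpL37A (2L 5070957 to 5072055), of the large subunit, likewise had its lowest rank in CLAMP RNAi 2-4 h. Its peak inside the span had a rank of 1.30% in CLAMP RNAi 2-4 h, with a width of 200 bp, against 83.6% in control 2-4 h. At 0-2 h the RpL37A peak had a rank of 84.7% in CLAMP RNAi and 66.6% in control. RpL18 (3L 7240203 to 7241351), likewise of the large subunit, had a rank of 61.9% with CLAMP RNAi at 2-4 h, 88.3% in the 2-4 h control, 78.5% with CLAMP RNAi at 0-2 h and 63.6% in the 0-2 h control.

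RpS27A and RpL40 encode fusions of ubiquitin with a ribosomal protein of the small and the large subunit. RpS27A (2L 10408352 to 10410456) had 2 sites in each list. The RpS27A site inside the span had a rank of 41.4% with CLAMP RNAi at 2-4 h, 82.8% in the 2-4 h control, 79.6% with CLAMP RNAi at 0-2 h and 88.5% in the 0-2 h control. The other RpS27A site straddled the lower end of the span, with ranks of 73.4%, 77.2%, 82.7% and 71.97% in that order. In every list but CLAMP RNAi 2-4 h its midpoint lay in the neighbouring gene Ir31a. RpL40 (2L 4227699 to 4228561) had a rank of 41.4% in CLAMP RNAi 2-4 h and of 78.5% to 83.5% in the other lists.

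RpS2 (2L 9896265 to 9897552), a small subunit gene needed for oogenesis, had a peak inside its span with a rank of 73.4% with CLAMP RNAi at 2-4 h and 87.5% in the 2-4 h control. At 0-2 h the RpS2 peak had a rank of 59.9% in CLAMP RNAi and 88.8% in control. RpLP1 (2L 419952 to 420864), of the stalk, differed little between lists, with ranks of 73.4% with CLAMP RNAi at 2-4 h, 77.7% in the 2-4 h control, 80.2% with CLAMP RNAi at 0-2 h and 80.8% in the 0-2 h control. RpL8 (3L 2587456 to 2588883), whose protein reaches the peptidyl transferase centre, had its peak beyond the upper end of the span in each list, with ranks of 41.8%, 65.3%, 70.4% and 78.3% in the same order.

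Several common sites lay outside the gene they were counted for. The peak of RpS28-like was in the neighbouring gene numb in each of the 4 lists, at ranks of 18.3% to 58.1%. That of RpL7-like lay below its span, at ranks of 40.5% to 73.5%. RpL7 had a site inside its span in each list, at ranks of 32.8% to 71.8%, and another in Ripalpha that CLAMP RNAi 0-2 h lacked. RpS3, whose protein sits at the mRNA entry of the small subunit, had a peak inside its span in each list except control 0-2 h. The control 0-2 h peak of RpS3 lay beyond the upper end of the span, in a different region. At 2-4 h the RpS3 peaks had ranks of 61.9% with CLAMP RNAi and 12.4% in control. At 0-2 h they had ranks of 24.2% with CLAMP RNAi and 8.19% in control.

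**Figure D4:**
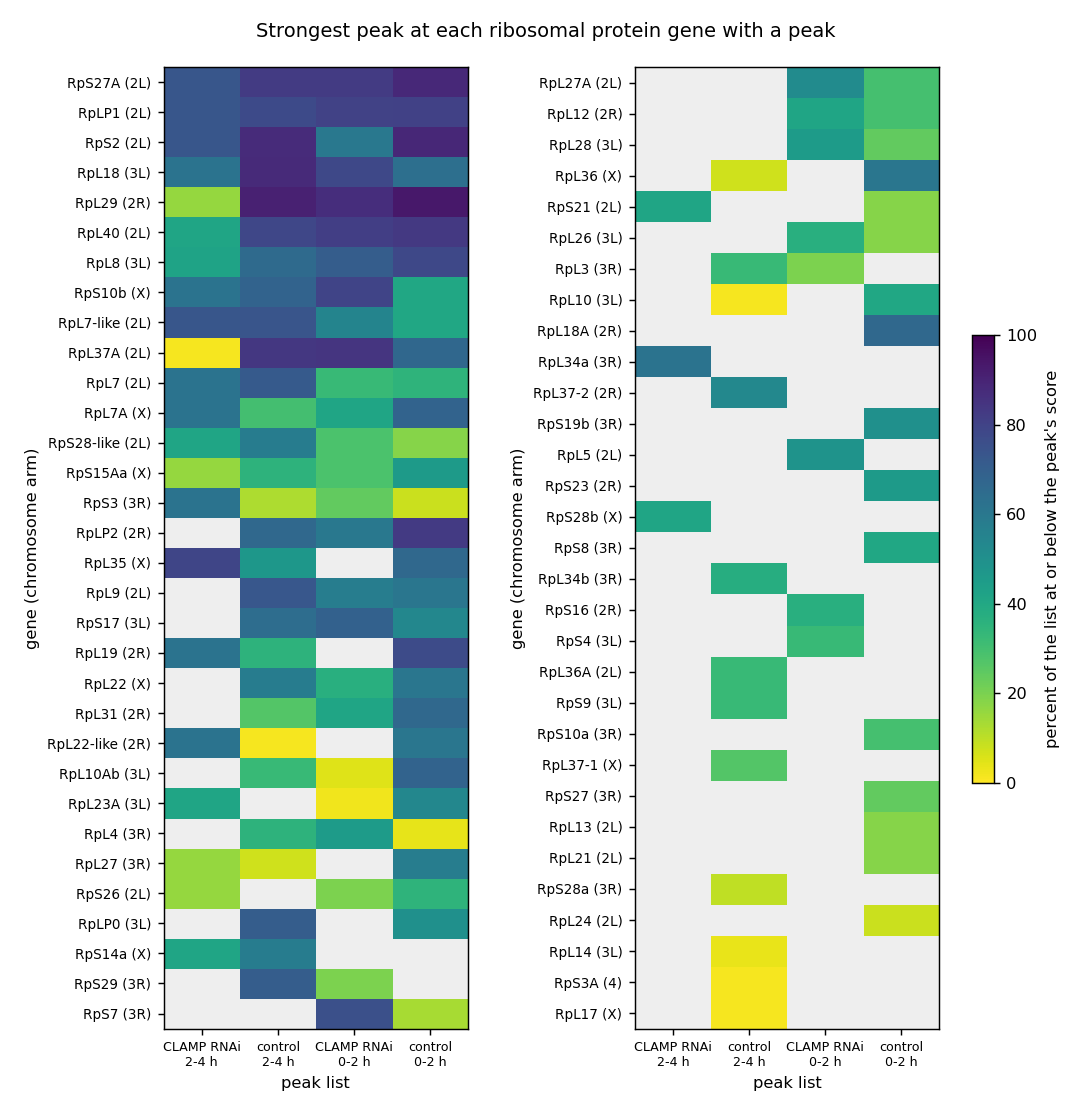
Rank of the strongest peak (colour, percent of the list at or below its score) at each of the 63 cytoplasmic ribosomal protein genes with a peak, by peak list; grey marks no peak. Genes are sorted by the number of lists with a peak and then by mean rank, so the 15 genes found in each list stand at the top of the left panel, where RpL29 has 15.8% in CLAMP RNAi 2-4 h and over 87% in the other lists.

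The median rank was 41.8% in CLAMP RNAi 2-4 h (27 peaks), 36.5% in control 2-4 h (48 peaks), 43.2% in CLAMP RNAi 0-2 h (38 peaks) and 45.4% in control 0-2 h (54 peaks). Over all peaks of a list, where tied scores share the highest rank, it was 61.9% with CLAMP RNAi at 2-4 h, 51.3% in the 2-4 h control, 51.8% with CLAMP RNAi at 0-2 h and 50.1% in the 0-2 h control. The median at ribosomal protein genes was thus below that of its list each time. The strongest peak reached 79.1% with CLAMP RNAi at 2-4 h, 90.8% in the 2-4 h control, 87.1% with CLAMP RNAi at 0-2 h and 93.7% in the 0-2 h control. RpL29 alone, in the 2 control lists, was in the top decile of its list. On the X the median rank was 51.6% over 6 peaks in CLAMP RNAi 2-4 h, 32.6% over 12 in control 2-4 h, 34.9% over 6 in CLAMP RNAi 0-2 h and 60.7% over 8 in control 0-2 h. On autosomes it was 41.8%, 45.4%, 46.9% and 40.5% in the same order, so neither chromosome class was the higher one throughout.

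Inside the gene span lay 13 of 27 peak midpoints in CLAMP RNAi 2-4 h (48.1%, 28.7% to 68.1%) and 32 of 48 in control 2-4 h (66.7%, 51.6% to 79.6%). At 0-2 h the numbers were 27 of 38 in CLAMP RNAi (71.1%, 54.1% to 84.6%) and 33 of 54 in control (61.1%, 46.9% to 74.1%). The spans made up 59.5% of the windows, a value inside each of these intervals. Midpoints were therefore not detectably concentrated in the genes or in the 500 bp around them. The gene table gives no strand, so start and end of transcription were not told apart. The window of 83 of the 92 genes overlapped another annotated gene, and in each list 3 to 6 midpoints outside the span lay in a neighbour.

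**Figure D5:**
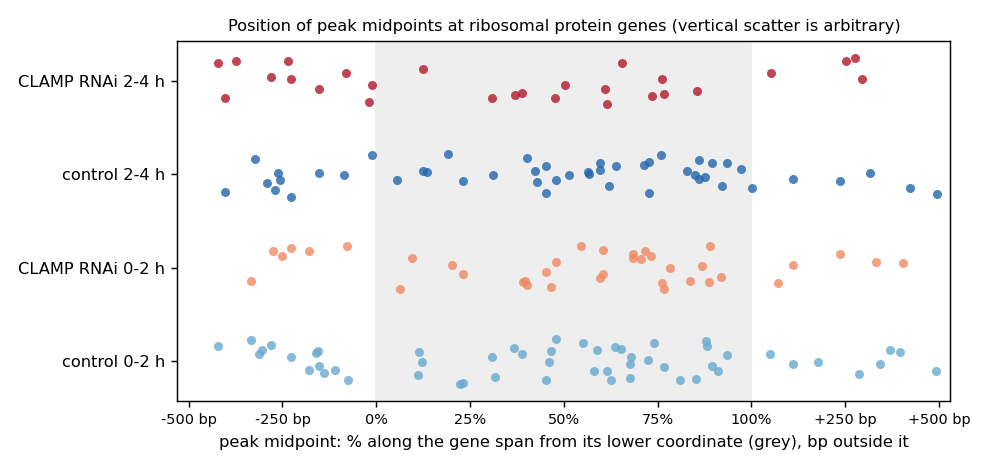
Peak midpoints at cytoplasmic ribosomal protein genes, 1 row per peak list and 1 point per peak. The horizontal axis is the position along the gene span in percent from its lower coordinate (grey) and the distance in bp outside it; points cover the span and its flanks in each list, with 13 of 27 inside the span in CLAMP RNAi 2-4 h and 33 of 54 in control 0-2 h.

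Introns of ribosomal protein genes often house small nucleolar RNAs, which guide modification of ribosomal RNA. Here 28 of the 92 genes held 74 snoRNA genes in their spans. Of these 28 host genes, 2 had a peak with CLAMP RNAi at 2-4 h, 11 in the 2-4 h control, 13 with CLAMP RNAi at 0-2 h and 9 in the 0-2 h control. Of the 64 other genes the numbers were 23, 30, 21 and 37 in that order. Over all genes up to 5 kb the shares were 19.7%, 32.5%, 27.2% and 35.9%. The share of host genes was above these in control 2-4 h and CLAMP RNAi 0-2 h and below them in the other lists. The share of the 64 other genes was above them in each list. These differences were not tested. Host genes were longer, with a median span of 1887.5 bp against 1125.5 bp, and had fewer of their number with a peak in each list except CLAMP RNAi 0-2 h. Among the 15 genes with a peak in each list, RpL7A was the 1 host.

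The comparison of CLAMP RNAi with control asks whether these sites depended on maternal CLAMP. At 2-4 h, 25 ribosomal protein genes had a peak with CLAMP RNAi and 41 in control, and 20 had one in both. Of the 41 control genes, 48.8% (32.9% to 64.9%) thus had a CLAMP RNAi peak, against 41.7% of the genes up to 5 kb with a control peak. At 0-2 h, 34 genes had a peak with CLAMP RNAi and 46 in control, with 29 in both. This was 63.0% (47.5% to 76.8%) of the 46 control genes, against 57.9% of genes up to 5 kb. The ratio of the CLAMP RNAi to the control number was 0.610 at 2-4 h and 0.739 at 0-2 h, against 0.608 and 0.756 for genes up to 5 kb. The values for genes up to 5 kb were thus close to those of the ribosomal protein genes and inside the intervals of the shares.

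The lower numbers with CLAMP RNAi came with shorter lists. With each list cut to its 15890 strongest peaks, 25 ribosomal protein genes had a peak with CLAMP RNAi at 2-4 h and 21 in the 2-4 h control. At 0-2 h these were 26 in CLAMP RNAi and 25 in control. CLAMP RNAi minus control was thus -16 genes at 2-4 h and -12 at 0-2 h in lists of their own length, and 4 and 1 genes in lists of equal length. The cut left CLAMP RNAi 2-4 h whole and took any difference in list length away by construction. Whether list length accounts for the lower numbers was not tested. Genes up to 5 kb at equal length had shares of 19.7% with CLAMP RNAi at 2-4 h, 20.0% in the 2-4 h control, 19.9% with CLAMP RNAi at 0-2 h and 19.7% in the 0-2 h control.

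Gene by gene, 3 ribosomal protein genes had a peak in the controls of both ages and with CLAMP RNAi at neither, against 3.83% of genes up to 5 kb. They were RpLP0, RpL10 and RpL36. RpLP0 had a rank of 70.5% in the 2-4 h control and 49.8% in the 0-2 h control, and RpL10, whose protein takes part in joining of the subunits, one of 1.52% and 40.5%. None of the 92 had a peak with CLAMP RNAi at both ages and in no control, against 0.589% of genes up to 5 kb. At 3 genes, picked after their values were seen, the direction turned between ages. RpS29 and RpL3 had a peak in control 2-4 h and CLAMP RNAi 0-2 h alone, and RpS21 in CLAMP RNAi 2-4 h and control 0-2 h alone. The share of genes up to 5 kb with such a turn was not computed, so this count has no background to be read against.

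Counted by peaks, 22 of the 48 control 2-4 h peaks at these genes (45.8%, 31.4% to 60.8%) overlapped a CLAMP RNAi 2-4 h peak by 1 base or more, against 40.6% of all control 2-4 h peaks. At 0-2 h it was 27 of 54 (50.0%, 36.1% to 63.9%), against 58.1%. In the other direction, 22 of the 27 CLAMP RNAi 2-4 h peaks (81.5%, 61.9% to 93.7%) had a control 2-4 h peak, against 65.0% of all, and 27 of the 38 CLAMP RNAi 0-2 h peaks (71.1%, 54.1% to 84.6%) a control 0-2 h peak, against 74.4%. Each of these values over all peaks lay inside the interval of the ribosomal protein genes.

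Between ages, 41 genes had a peak in control 2-4 h and 46 in control 0-2 h, with 29 in both. Of the control 0-2 h genes 63.0% (47.5% to 76.8%) had one in control 2-4 h, against 65.8% of genes up to 5 kb. With CLAMP RNAi, 25 genes had a peak at 2-4 h and 34 at 0-2 h, with 17 in both. These were 50.0% (32.4% to 67.6%) of the 34 genes, against 45.1% of genes up to 5 kb. The lone gene of the set on chromosome 4, RpS3A, had 1 peak of a score of 13, the lowest in the list, in control 2-4 h.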

How the data were processed

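Peak lists were analysed as the authors deposited them, 1 per group, each giving interval, name and score. Per the submitters' processing notes, FastQC, Trim Galore, BWA, Bowtie2, SAMtools, Picard 2.20.2 and MACS2 were used with build dm6, in roles and order not given in the sources used here. The score is the authors' deposited value per peak, of unstated definition, and was used for ranks within a list and for filters. The filter at a score of at least 50 was the same value for each list. It kept 3887 of 15890 peaks in CLAMP RNAi 2-4 h and 15549 of 25026 in control 2-4 h. At 0-2 h it kept 13157 of 22489 in CLAMP RNAi and 14022 of 28246 in control. Counts at that filter are thus not on a common scale between lists. Pooling of replicates, a control library and the calling threshold are not given in the sources used here.

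Intervals listed repeatedly were collapsed to 1 with the highest score. Coordinates are 1-based. Gene spans came from the RefSeq table of Release 6, the assembly named dm6. Shares carry exact Clopper-Pearson 95% intervals, differences Newcombe intervals and densities exact Poisson intervals, all of counting error only. No test between lists was possible. Counting of peaks per gene was tested on simulated data. Python 3.11.15, pandas 2.3.3, numpy 2.4.6 and scipy 1.17.1 were used.

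Named genes are the X genes, those with a peak in each list, in both control lists alone or in both CLAMP RNAi lists alone, and the 3 with the strongest peak per list; others are named for their role or arm, or said to be picked after their values were seen. The members and lists were chosen with earlier results of these data known. The planned promoter sequences, motifs and distances to transcription starts were not analysed here, since no sequence or strand was used.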

Additional observations from a re-analysis of the deposited data

Results flagged for a closer look

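Each item here had values of opposite sign at the 2 ages. Whether the ages differ was not tested, since each group had a single list.

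The X minus autosome difference in the share of ribosomal protein genes with a peak was 18.5 points in CLAMP RNAi 2-4 h and -9.89 points in CLAMP RNAi 0-2 h. In the control lists it was 23.3 points at 2-4 h and -8.42 points at 0-2 h. These values rest on 14 X genes, and each interval included 0.

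The median rank of peaks at these genes differed between CLAMP RNAi and control by 5.27 points at 2-4 h and by -2.18 points at 0-2 h. Ranks depend on ties, since tied scores share the highest rank. The whole CLAMP RNAi list of 2-4 h had a median rank of 61.9%, against 51.3% for its control list. At 0-2 h the list medians were 51.8% and 50.1%. Whether the sign at 2-4 h comes from ties was not tested. Median width of peaks at these genes differed between CLAMP RNAi and control by -168.5 bp at 2-4 h (203.0 bp against 371.5 bp). At 0-2 h it differed by 9.0 bp (366.0 bp against 357.0 bp). Peaks of 200 bp, the narrowest width, numbered 13 of 27 in CLAMP RNAi 2-4 h and 7 of 48 in control 2-4 h. That width was held by 36.6% of all peaks of the CLAMP RNAi list at 2-4 h, against 12.4% for its control list. Whole-list median widths at 2-4 h were 245.0 bp with CLAMP RNAi, against 375.0 bp for the control list. At 0-2 h they were 366.0 bp with CLAMP RNAi, against 364.0 bp for the control list.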

How the results depend on the processing

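Of 140 alternative values for 19 results, 116 stayed within the main value's interval or within 1.5 times a count, 22 moved beyond that and 2 were genotype differences that turned sign beyond it. The X minus autosome differences, positive or negative, stayed within their main intervals under every alternative run, although 5 of them at 0-2 h turned sign and the interval of control 2-4 h lay above 0 with spans alone (27.7 points) and without paralogs (43.7 points). With lists cut to the length of the shortest, the CLAMP RNAi minus control difference in genes with a peak became 4 at 2-4 h and 1 at 0-2 h. Genes with a peak were then 21 in control 2-4 h and 25 in control 0-2 h, at 98.9 and 121.3 peaks per Mb. CLAMP RNAi peaks were then present at 66.7% of control 2-4 h genes and overlapped 68.2% of control 2-4 h peaks at the set. A score of at least 50 left 1 gene with CLAMP RNAi at 2-4 h, 21 in the 2-4 h control, 18 with CLAMP RNAi at 0-2 h and 22 in the 0-2 h control, with densities of 4.49, 98.9, 85.4 and 107.9 peaks per Mb. Shares were then 1.09%, 22.8%, 19.6% and 23.9%, against 4.47%, 19.7%, 16.0% and 17.4% of genes up to 5 kb. The genotype difference was then -4 at 0-2 h, and 4.76% of control 2-4 h genes had a CLAMP RNAi peak, with both lists filtered by score. Control peaks of that score were also looked up in lists not filtered by score. They were found in CLAMP RNAi in 68.2% at 2-4 h and 70.8% at 0-2 h, and 91.7% of those of control 0-2 h in control 2-4 h. Gene spans alone gave 13 genes with CLAMP RNAi at 2-4 h and 30 in the 0-2 h control, and a genotype difference of -6 at 0-2 h. The cause of these moves was not tested. No paired analysis was possible because each group had 1 list. Read depth is unknown, so a missing peak does not show an unbound gene.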
